A study of Mus musculus with 15 samples.

Results

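Iron handling and metallothionein genes were followed in the liver of mice fed a control, a high-fat or a coffee-supplemented high-fat diet. The set holds 10 genes, Hamp, Bmp6, Tfrc, Trf, Slc39a14, Slc40a1, Cp, Fth1, Mt1 and Mt2, and every array probe set annotated to them was taken, 26 of 45037 apart from control probe sets. Of the 10 genes, 9 had a probe set of their own and were tested among 18193 genes. Trf, the plasma iron carrier transferrin, was measured only by a probe set that is also annotated to Srprb, and it entered no test by gene.

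Male C57BL/6J mice began the diets at an age of 7 weeks and stayed on them for 9 weeks. ND mice received a normal diet with 10% of energy as fat and HF mice a high-fat diet with 60%. HFCC, HFDC and HFGC mice received the same high-fat diet with 2% caffeinated, decaffeinated or green unroasted coffee. Each group was represented by 3 mice out of a larger group, hybridised singly to Affymetrix mouse genome arrays, so the 15 arrays are 15 livers and no array has a technical repeat. The 5 hepatocyte markers measured summed to intensities of 84300 to 93400 over the 15 arrays, with HF at 84300 to 88200 and ND at 85200 to 93400. In whole liver, fewer cells of a type and less RNA per cell cannot be told apart.

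Liver cells make hepcidin, the peptide encoded by Hamp, which removes the iron exporter ferroportin (Slc40a1) from cell surfaces and so lowers iron release into blood. Hamp transcription is raised by iron through bone morphogenetic proteins, among them BMP6, and by inflammation through interleukin-6 and STAT3. Tfrc encodes the receptor that takes up transferrin-bound iron and its transcript is stabilised when iron in the cell is low, whereas metallothioneins bind zinc and copper and are induced by zinc and by glucocorticoids.

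The promoter of Hamp is shown because its regulators are followed here, and those of Mt1 and Mt2 because both genes varied together. Each window covers 250 bases before and 50 after the RefSeq start on GRCm38.p6 and is read 5′ to 3′ on the strand of the gene. Capitals mark the letters GGCGCC (core of the BMP response element) and TTCNNNGAA (STAT site) in Hamp, and the metal response element cores TGCACNC and TGCGCNC on either strand in Mt1 and Mt2.
Hamp, chr7:30943980-30944279, minus strand: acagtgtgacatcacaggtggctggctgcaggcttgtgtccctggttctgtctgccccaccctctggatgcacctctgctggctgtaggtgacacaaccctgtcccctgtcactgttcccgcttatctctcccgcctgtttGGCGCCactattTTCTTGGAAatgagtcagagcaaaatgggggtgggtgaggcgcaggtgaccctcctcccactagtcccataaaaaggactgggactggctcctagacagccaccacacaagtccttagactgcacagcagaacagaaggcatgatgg
Mt1, chr8:94178839-94179138, plus strand: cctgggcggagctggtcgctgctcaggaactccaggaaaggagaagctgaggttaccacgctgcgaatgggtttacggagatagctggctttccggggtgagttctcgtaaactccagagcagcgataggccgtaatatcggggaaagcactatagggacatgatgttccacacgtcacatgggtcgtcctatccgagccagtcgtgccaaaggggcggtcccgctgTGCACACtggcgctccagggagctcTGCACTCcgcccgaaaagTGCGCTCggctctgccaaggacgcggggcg
Mt2, chr8:94172368-94172667, plus strand: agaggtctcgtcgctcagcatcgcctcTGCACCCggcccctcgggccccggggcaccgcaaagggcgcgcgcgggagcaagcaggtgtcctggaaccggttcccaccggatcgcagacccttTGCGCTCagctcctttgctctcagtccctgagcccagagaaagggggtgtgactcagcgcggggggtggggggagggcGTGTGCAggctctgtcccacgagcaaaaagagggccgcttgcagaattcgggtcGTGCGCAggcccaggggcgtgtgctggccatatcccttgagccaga

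In Hamp, GGCGCC lay at -109 to -104 and TTCNNNGAA at -97 to -89 from the start. Among 32851 promoter windows of this length, 11.9% held GGCGCC and 8.3% held TTCNNNGAA. Mt1 held 3 metal response element cores and Mt2 held 4, while 1.97% of windows held at least 3 and 0.517% at least 4. TGCACNC alone was in 12.6% of windows and TGCGCNC in 15.4%. The matches describe letters and were not set against the arrays.

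None of the 9 genes passed the test in any of the 12 comparisons at an adjusted p under 0.05 (limma, Benjamini-Hochberg over all genes). In HF against ND, 0 of 9 passed where 13.5% of all genes did, and 4 of 9 had an unadjusted p under 0.05 against 28.8% of all genes. Against HF, 0 of 9 passed in HFCC, HFDC and HFGC, where 1.64%, 5.02% and 3.09% of all genes passed, and 0, 1 and 1 of 9 had an unadjusted p under 0.05 against 18.4%, 22.7% and 20.6%. For the coffee groups together against HF, 0 of 9 passed against 10.3% of all genes, with 1 of 9 at an unadjusted p under 0.05 against 25.5%. For the 4 high-fat groups together against ND, 0 of 9 passed against 6.03%, with 3 of 9 at an unadjusted p under 0.05 against 22.4%.

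Against ND, 0 of 9 passed in HFCC (2.78% of all genes), HFDC (0.533%) and HFGC (1.45%), and 1, 2 and 3 of 9 had an unadjusted p under 0.05 against 17%, 14.2% and 14.9% of all genes. Between coffees, 0 of 9 passed in HFDC against HFCC (0.0934% of all genes), HFGC against HFCC (0%) and HFGC against HFDC (0.0385%), with 1, 0 and 1 of 9 at an unadjusted p under 0.05 against 7.97%, 2.55% and 6.74%. The arrays of the groups did not overlap for 3 of 9 genes in HF against ND (26.5% of all genes), 1 in HFCC against HF (21.5%), 3 in HFDC against HF (26.2%), 4 in HFGC against HF (23%), 3 in HFDC against ND (18%) and 1 in HFDC against HFCC (16%). This held for 2 of 9 in HFGC against ND (17.1%), against HFCC (7.65%) and against HFDC (13.1%). It held for 0 in HFCC against ND (20%), the coffee groups together against HF (8.31%) and the 4 high-fat groups together against ND (3.66%). With 9 genes, none of these counts is read as particular to the set. The median log2 difference of the 9 genes in HF against ND was -0.30, beside 0.00 over all genes.

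Hamp had the widest spread between mice of the same diet of all 18193 genes. Its pooled SD within groups was 2.22 on the log2 scale, where the median gene had 0.11 and the next widest, Bcl6, 1.49. Log2 intensities of Hamp were 9.90, 10.90 and 5.73 in ND replicates 1, 2 and 3, and 6.04, 4.67 and 4.99 in HF. They were 4.01, 9.53 and 5.01 in HFCC, 5.36, 8.19 and 10.92 in HFDC, and 8.87, 9.31 and 9.83 in HFGC. The lowest and highest mouse differed 121-fold in intensity (36.4-fold in the other Hamp probe set), and ND, HFCC and HFDC each held mice near both ends. The low Hamp readings, at 4.01 to 6.04, were near those of probe sets that are dim here, such as 2 of Tfrc with means of 4.87 and 3.88. How far they lie above background cannot be judged without detection calls, so fold values that rest on them are uncertain. HF was uniformly low and HFGC uniformly high, and these groups did not overlap.

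**Figure D1:**
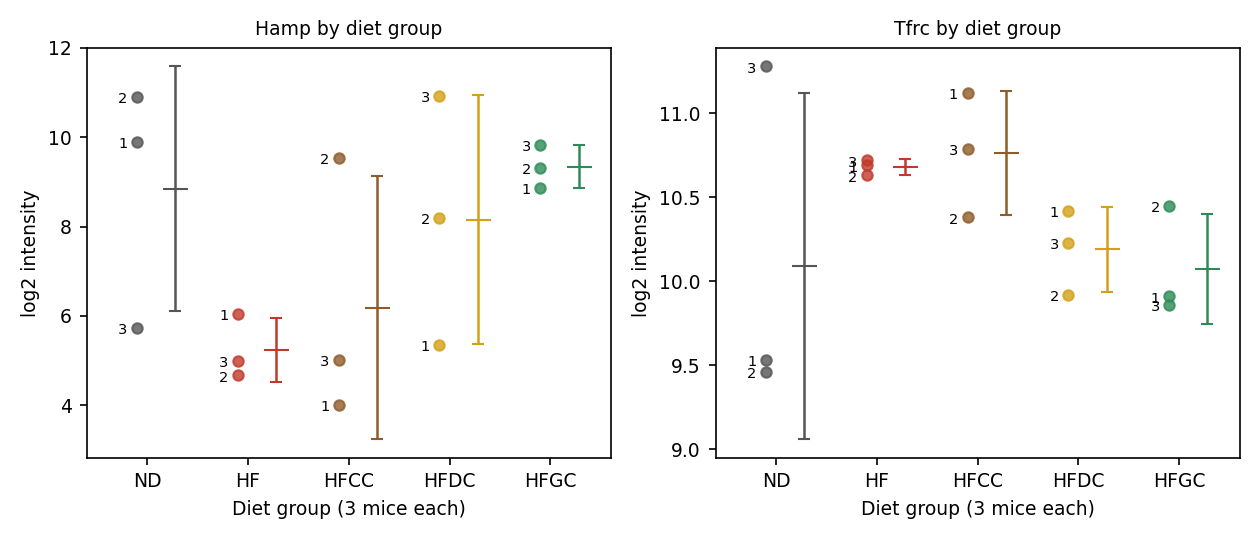
Log2 intensity of Hamp (left) and Tfrc (right) in each of the 15 mice by diet group, with vertical scales that differ between the panels. Points are mice, numbers give the replicate, and the bars beside them are the group mean with its SD. ND replicate 3 was the lowest of its group for Hamp, at 5.73, and the highest for Tfrc, at 11.28.

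The mean log2 level of Hamp was 9.34 in HFGC, 8.84 in ND, 8.16 in HFDC, 6.18 in HFCC and 5.23 in HF, and no neighbours in this order passed the test. HF minus ND was -3.61 (SE 1.49, n = 3 per group, limma adjusted p = 0.122). HFGC minus HF was 4.10 (SE 1.49, limma adjusted p = 0.13), with an interval of 0.93 to 7.28. HFDC minus HF was 2.92 (limma adjusted p = 0.264) and HFCC minus HF was 0.95 (limma adjusted p = 0.812).

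The first of these values depended on ND replicate 3. Without it, Hamp was called in HF against ND at -5.17 (SE 1.45, limma adjusted p = 0.0384). With the HF and HFGC arrays fitted alone, HFGC minus HF kept 4.10 with an SE of 0.34 and was called (limma adjusted p = 0.0113). In that fit 1 of the 9 genes followed here was called, and 9 of all 18193 genes were. That fit leaves out the groups where Hamp varied most, with an SD of 2.75 in ND, 2.95 in HFCC and 2.78 in HFDC. It keeps HF at 0.72 and HFGC at 0.48, so its SE does not carry the spread between mice seen in the other groups.

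Hamp also moved with a measure of RNA quality. The 3′ minus 5′ log2 signal of Gapdh and Actb is larger in more degraded RNA. It was 1.08 to 1.40 in HF, 0.833 to 0.948 in ND and 0.697 to 0.889 in HFGC. In HFCC it was 0.837 to 1.07 and in HFDC 0.86 to 1.06, so all HF arrays lay above all other arrays. With this measure as a covariate, Hamp was 0.09 in HF against ND (SE 1.86, limma adjusted p = 0.987) and -0.14 in HFGC against HF (SE 2.01, limma adjusted p = 0.99), so both signs turned. HFDC against HF turned to -0.21 (limma adjusted p = 0.972) and HFCC against HF to -2.20 (limma adjusted p = 0.73). Because the measure separates HF from every other group, this fit cannot tell the HF diet from RNA quality. That limit holds for each comparison with HF in which a sign turned or a call was lost with the covariate. The part of RNA quality in the Hamp values was not tested beyond this fit.

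A second Hamp probe set, open to cross-hybridisation by its design, gave HFGC minus HF 2.95 (SE 1.24, limma adjusted p = 0.212 over all probe sets). Of the probe sets of Hamp2, the close paralog of Hamp, one ran from 6.99 to 11.61 and the other from 4.77 to 5.27. The array cannot say how far the first of them reads Hamp itself.

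Slc4a1, the anion exchanger of red cells, differed between mice as well, with a pooled SD of 1.14 that ranked 5 among all genes. It was 6.19, 5.17 and 7.41 in ND replicates 1, 2 and 3, was 7.92, 5.27 and 6.58 in HFCC, and was 8.78, 5.81 and 5.93 in HFDC. In HF it was 6.35, 7.01 and 5.87 and in HFGC 6.98, 6.17 and 5.77, and in each of the 5 groups the mouse with the lowest Hamp had the highest Slc4a1. The same 5 mice had the highest 3′ minus 5′ value of their groups, though in HFGC only at 0.8885 beside 0.887. Slc4a1 and RNA quality thus cannot be told apart in this pattern. Slc4a1 was singled out after its values were seen, and how many of all genes match Hamp in this way was not counted. Other red cell transcripts varied less, with Alas2 at 9.64 to 10.30 and Epb42 at 4.86 to 5.12, and did not share this pattern. The mouse lowest for Hamp was highest for Alas2 in ND, HFCC and HFDC but not in HF or HFGC. It was highest for Epb42 in ND and HF but not in the coffee groups. Alas2, the red cell enzyme that begins heme synthesis, rose by 0.43 in HF against ND (limma adjusted p = 0.0184), a call lost without HF replicate 2 at 0.38 (limma adjusted p = 0.0784), without ND replicate 1 or HF replicate 3, and with the covariate. The red cell markers measured, 4 of 8 listed, summed to intensities of 915 to 1140 in ND, 1100 to 1390 in HF, 896 to 1310 in HFCC, 1010 to 1510 in HFDC and 1130 in all HFGC mice, and their part in the Hamp values was not tested.

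Some markers of other cells also moved between ND and the high-fat diets. In HF against ND, 0 of 11 Kupffer cell and macrophage markers and 0 of 6 lymphocyte markers were called. Of bile duct markers 0 of 4 were called, of fat cell markers 0 of 3 and of sinusoidal endothelium markers 1 of 10. Of 8 stellate cell markers 4 rose in HF against ND (13.5% of all genes called), among them the receptor gene Pdgfrb by 0.75 (limma adjusted p = 0.0032) and the collagen gene Col3a1 by 0.70 (limma adjusted p = 0.0113). In the 4 high-fat groups together 3 of 8 rose (6.03% of all genes called). The 8 summed to intensities of 3420 to 3870 in ND and 3880 to 4950 in HF. The pancreas markers measured, 3 of 5 listed, summed to 347 to 432 in ND and to 544 to 749 in the other groups, and of these only Cela1, a digestive elastase, was called, at 0.90 in HF against ND (limma adjusted p = 0.00346). With the 3′ minus 5′ covariate these HF against ND calls, the 4 stellate ones and Cela1, were lost. For the 4 high-fat groups together against ND, Cela1 was kept with the covariate at 1.02 (limma adjusted p = 0.00191). Among stellate markers Pdgfrb was kept at 0.52 (limma adjusted p = 0.0213) and Reln at 0.43 (limma adjusted p = 0.0432). Col3a1 was lost there at 0.51 (limma adjusted p = 0.051). The part of these markers in the values of the 9 genes against ND was not tested.

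**Figure D2:**
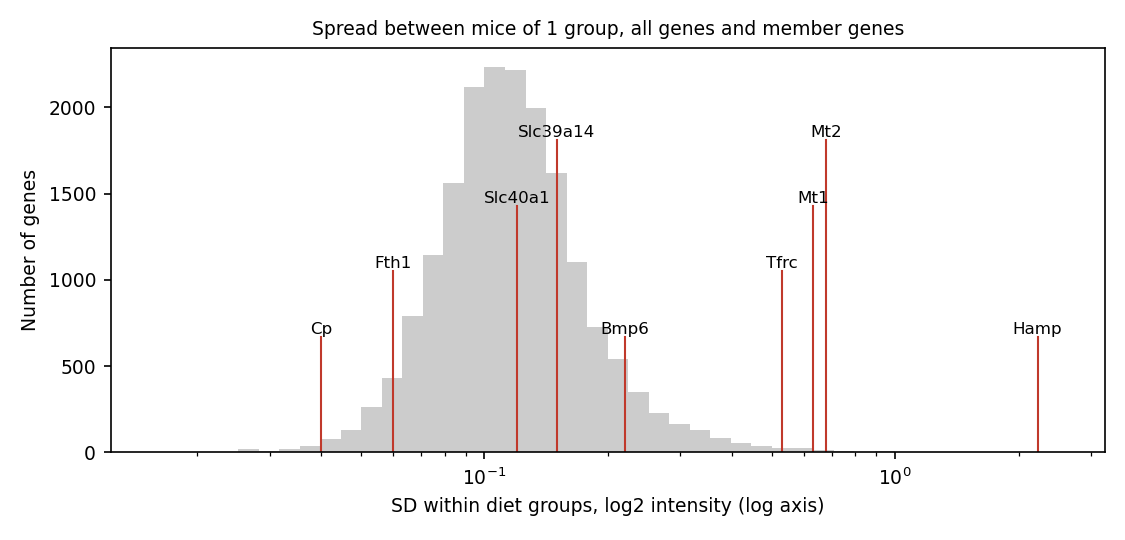
Number of genes (vertical axis) by SD within diet groups in log2 intensity (horizontal log axis), as grey bars over all 18193 genes, with red lines at the 9 genes tested. Hamp, at 2.22, lies beyond every other gene, Tfrc, Mt1 and Mt2 lie at 0.53 to 0.68, and Cp and Fth1 lie at the narrow end at 0.04 and 0.06.

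Bmp6, the ligand that raises Hamp under iron load, was dim, and its pooled SD of 0.22 was wider than that of 93% of genes. Its log2 intensity was 6.45, 6.27 and 5.85 in ND, 5.86, 5.78 and 5.97 in HF, and 6.26, 5.86 and 6.40 in HFGC. The mean was 5.85 in HFCC and 5.95 in HFDC. HF minus ND was -0.32 (SE 0.15, limma adjusted p = 0.189), and without ND replicate 3 it was called at -0.49 (limma adjusted p = 0.0494). With the 3′ minus 5′ covariate HF minus ND was 0.02 (limma adjusted p = 0.978).

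Tfrc, the transferrin receptor, was highest in the mouse lowest for Hamp in 3 of the 5 groups. It was 9.53, 9.46 and 11.28 in ND, 10.69, 10.63 and 10.72 in HF, and 11.12, 10.38 and 10.79 in HFCC. In HFDC it was 10.42, 9.92 and 10.23 and in HFGC 9.91, 10.45 and 9.86. ND replicate 3, HFCC replicate 1 and HFDC replicate 1, each the lowest of its group for Hamp, were the highest of their groups for Tfrc. In HF the mouse lowest for Hamp, replicate 2, was also the lowest for Tfrc, and in HFGC, where replicate 1 was lowest for Hamp, replicate 2 was highest for Tfrc. All HFDC and HFGC mice lay below all HF mice.

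HFGC minus HF was -0.61 for Tfrc (SE 0.36, limma adjusted p = 0.36) and HFDC minus HF -0.49 (limma adjusted p = 0.454), so neither passed. HF minus ND was 0.59 (SE 0.36, limma adjusted p = 0.295), and without ND replicate 3 it was called at 1.18 (SE 0.20, limma adjusted p = 0.00695). With the 3′ minus 5′ covariate it was -0.05 (limma adjusted p = 0.973), while HFGC minus HF was 0.12 (limma adjusted p = 0.958) and HFDC minus HF 0.05 (limma adjusted p = 0.977), so all 3 signs turned. The other Tfrc probe sets were dim, at a mean of 4.87 and 3.88.

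Because Hamp fell into 7 arrays at 4.01 to 6.04 and 8 at 8.19 to 10.92 with a gap of 2.15, no correlation over all 15 arrays is given for it, and 23 relations were computed, Mt1 with Mt2 over all arrays and 11 genes with Hamp within each of both sets. Tfrc lay at 10.42 to 11.28 in the 7 arrays low for Hamp and at 9.46 to 10.45 in the 8 high ones. Within these sets it gave r = -0.14 (rho = -0.07, exact permutation p = 0.77 and 0.91) over the 7 arrays and r = -0.22 (rho = -0.36, exact permutation p = 0.59 and 0.39) over the 8. Without the 2 arrays farthest from the median of Tfrc, r was -0.11 and -0.14. Since the arrays were split by Hamp itself, values within a set cannot say whether a gene differs between the sets.

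The ferritin gene Fth1 gave the highest r with Hamp in the 8 arrays, 0.81 (rho = 0.86, exact permutation p = 0.014 and 0.011). Adjusted over the 23 relations these p-values were 0.16 and 0.13, so the relation did not pass. It was singled out after its value was seen, and r was 0.75 without the 2 arrays farthest from the median of Fth1. None of the other 21 relations with Hamp passed.

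Slc40a1, the iron exporter ferroportin, had the only probe set among the 26 that was called in any comparison. Its brighter probe set, which stood for the gene, was 11.37, 11.14 and 11.46 in ND and 10.91, 10.92 and 11.22 in HF. It had means of 11.18 in HFCC, 11.25 in HFDC and 11.04 in HFGC. HF minus ND was -0.30 (SE 0.10, limma adjusted p = 0.0509), just outside the threshold.

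The dimmer Slc40a1 probe set, singled out after its values were seen, read 9.29, 9.04 and 9.15 in ND and 8.39, 8.18 and 8.70 in HF. It read 8.85, 9.02 and 9.13 in HFCC, 8.85, 8.98 and 9.16 in HFDC, and 8.87, 8.78 and 9.06 in HFGC. Every HF mouse lay below every mouse of the other groups. In a fit over all 45037 probe sets, where 10.3% were called, it fell by 0.74 on the log2 scale in HF against ND (SE 0.13, limma adjusted p = 0.00381), and 1 of the 26 probe sets was called.

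**Figure D3:**
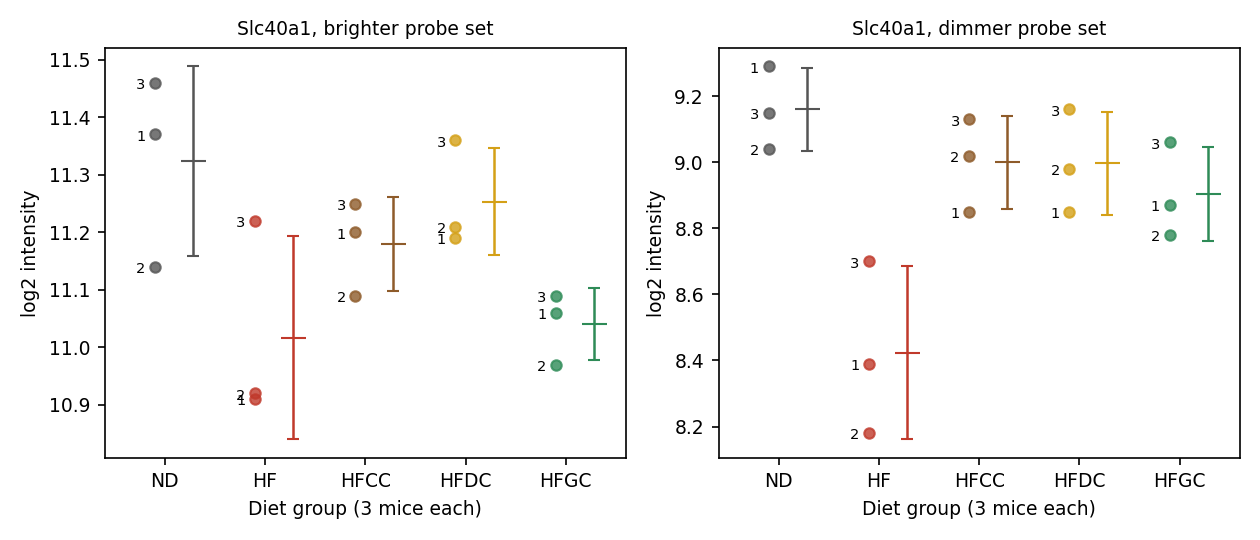
Log2 intensity of both Slc40a1 probe sets in each of the 15 mice by diet group, the brighter on the left and the dimmer on the right, with vertical scales that differ. Points are mice with replicate numbers, bars are the group mean with its SD, and in the right panel the HF mice, at 8.18 to 8.70, lie below all other mice.

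Against HF the dimmer probe set was higher by 0.58 in HFDC (limma adjusted p = 0.0344, called, where 2.72% of probe sets were) and by 0.55 in the coffee groups together (limma adjusted p = 0.011, called, where 7.24% were). In HFCC it was 0.58 (limma adjusted p = 0.053) and in HFGC 0.48 (limma adjusted p = 0.0553), neither called, where 0.5% and 2.58% of probe sets were. The HFDC call was lost in 4 of 15 fits that left out 1 array, HF replicate 2 or 3 or HFDC replicate 2 or 3, with the groups compared alone (limma adjusted p = 0.103), and the call for the coffee groups together was lost without HF replicate 2, at 0.43 (limma adjusted p = 0.108).

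With the 3′ minus 5′ covariate these 3 calls were lost, at -0.39 in HF against ND (limma adjusted p = 0.269), 0.28 in HFDC against HF (limma adjusted p = 0.5) and 0.22 for the coffee groups together (limma adjusted p = 0.649). All HF arrays lay above all others in the 3′ minus 5′ value, so this fit cannot tell the HF diet from RNA quality. The part of RNA quality beyond this fit was not tested. The probe sets thus give one gene with a difference of -0.30 and of -0.74 in the same comparison.

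Slc39a14, which imports iron not bound to transferrin as well as zinc, ran from 9.89 to 10.32 over the 15 arrays. No comparison passed, and HF minus ND was -0.18 (SE 0.11). Its other probe sets stayed at means of 6.94 to 7.21.

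Cp, the plasma ferroxidase ceruloplasmin, was bright and even, at 13.14 to 13.34. It had a pooled SD of 0.04, narrower than all but 0.583% of genes, and HF minus ND was 0.11 (SE 0.06). Its 8 probe sets did not run together, since one gave HFGC minus HF -0.64 (limma adjusted p = 0.0791) and another 0.29 (limma adjusted p = 0.203).

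Fth1, the heavy chain of the iron store ferritin, lay at 13.54 to 13.76. It was 13.76, 13.74 and 13.66 in ND and 13.58, 13.54 and 13.61 in HF, which did not overlap. HF minus ND was -0.14 (SE 0.06, limma adjusted p = 0.15), and the second Fth1 probe set had means of 13.53 in ND and 13.58 in HF. The probe set shared by Trf and Srprb read 14.08 to 14.25 over all arrays.

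In the probe sets that stood for them, the metallothionein genes had their lowest group means with decaffeinated coffee, though no comparison passed. Mt1 was 11.57, 10.86 and 10.16 in ND, 9.61, 10.13 and 9.76 in HF, and 11.05, 10.17 and 9.94 in HFCC. It was 9.24, 8.60 and 9.00 in HFDC and 8.77, 9.65 and 10.75 in HFGC. All HFDC mice lay below all ND, HF and HFCC mice, and HFGC spanned both. The other Mt1 probe set was dim, with means of 5.70 in ND, 5.56 in HF, 5.51 in HFCC, 5.57 in HFDC and 5.58 in HFGC. There HFDC was not the lowest group.

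For Mt1, HFDC minus ND was -1.91 (SE 0.43, limma adjusted p = 0.0623), the 4 high-fat groups together minus ND -1.14 (limma adjusted p = 0.0586) and HFDC minus HFCC -1.44 (limma adjusted p = 0.325). HFDC minus HF was -0.88 (limma adjusted p = 0.235). The first was called without HFGC replicate 1 or 3, at limma adjusted p of 0.0411 and 0.0294, with the difference still at -1.91. With the 3′ minus 5′ covariate HFDC minus ND was -1.92 (limma adjusted p = 0.0748).

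Mt2 was 10.52, 8.37 and 8.16 in ND, 8.06, 8.39 and 8.02 in HF, and 8.99, 7.70 and 7.81 in HFCC. It was 7.31, 7.33 and 7.73 in HFDC and 7.74, 7.72 and 8.06 in HFGC. ND replicate 1 and HFCC replicate 1 were the highest of their groups, as they were for Mt1. The 4 high-fat groups together minus ND gave -1.11 (SE 0.36, limma adjusted p = 0.0843), called without ND replicate 3 at -1.54 (limma adjusted p = 0.0475).

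**Figure D4:**
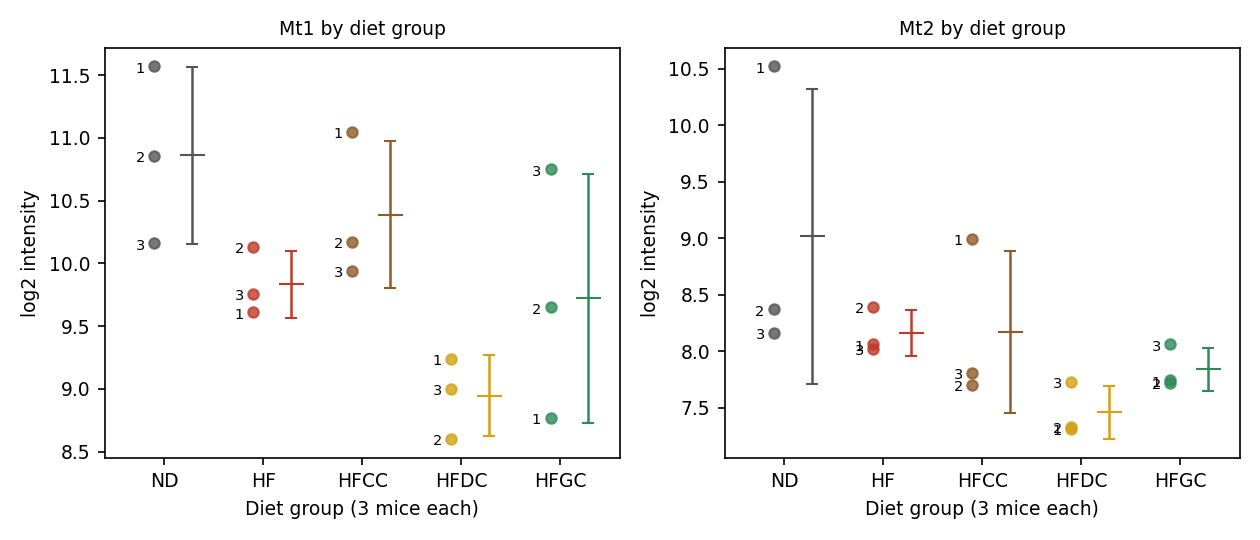
Log2 intensity of Mt1 (left) and Mt2 (right) in each of the 15 mice by diet group, with vertical scales that differ. Points are mice with replicate numbers and bars are the group mean with its SD. HFDC has the lowest mean in both panels, 8.95 and 7.46.

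Over the 15 mice Mt1 and Mt2 varied together, with r = 0.81 (permutation p = 1e-05, the smallest that 100000 permutations can give) and rho = 0.75 (permutation p = 0.0016). Adjusted over the 23 relations these were 0.00023 and 0.037, and r was 0.75 without the 2 mice farthest from the median of Mt1. The pair shares diet groups, so the relation includes differences between diets.

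**Figure D5:**
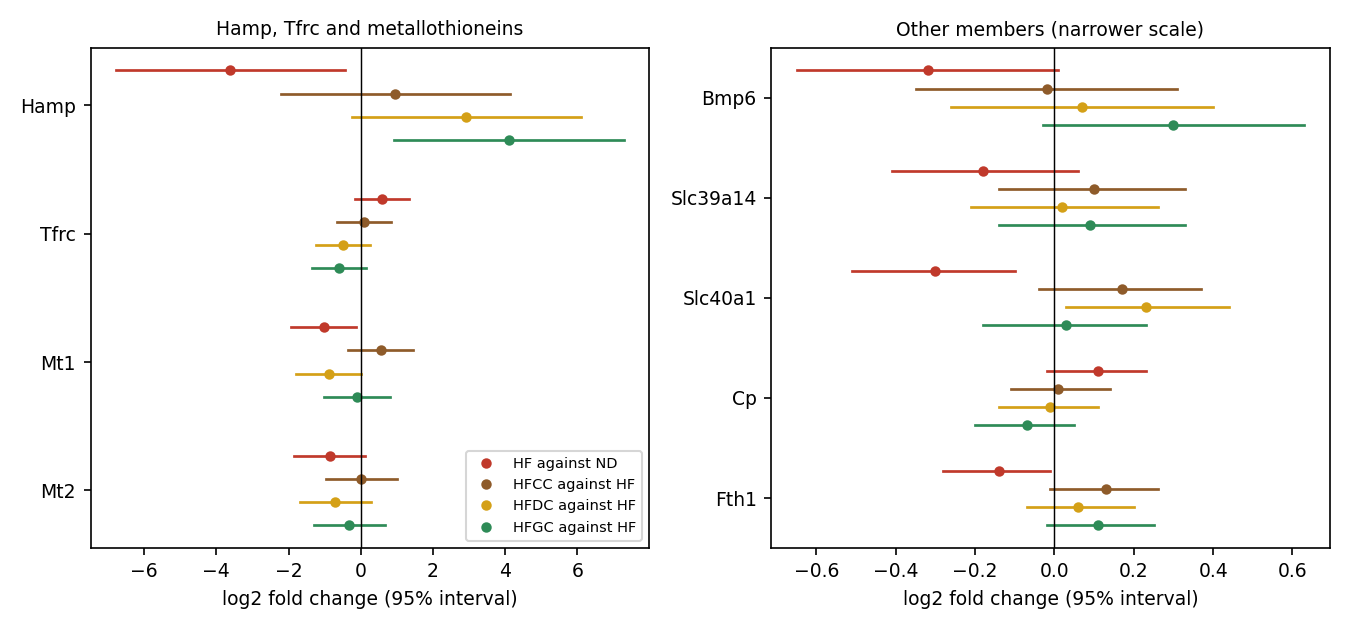
Log2 fold change with its 95% interval (horizontal axis) for the 9 genes tested in HF against ND and in each coffee group against HF, from 1 limma fit of 15 arrays. The left panel has a wider scale than the right, and Hamp has the widest intervals, as in HFGC against HF from 0.93 to 7.28.

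The pathways around these genes were read from lists, and many of their calls were lost when 1 array was left out. This held for HF arrays and for those of other groups, as for Acvr1 in HF against ND without ND replicate 1, 2 or 3. The lists held 18 measured genes of hepcidin regulation and 17 of iron uptake, storage and release. There were 13 of the iron-responsive element system and iron-sulfur clusters, 7 of heme synthesis and 10 of heme binding and breakdown. Zinc had 21, copper 13, the acute phase 26 and glucocorticoid targets 14. In HF against ND, 30 entries of these lists were called, where 13.5% of all genes were. Of the 30, 8 were kept without HF replicate 2, 7 in all 15 fits that left out an array, and 0 with the 3′ minus 5′ covariate. For the coffee groups together against HF 19 were called, where 10.3% of all genes were, and 0 were kept without HF replicate 2 and 0 with the covariate. Over all genes, 1868 calls became 4 without HF replicate 2 and 0 with the covariate. The covariate fit cannot tell the HF diet from RNA quality, since all HF arrays lay above all others in that measure.

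Among regulators of hepcidin, 2 of 18 measured genes rose and 2 fell in HF against ND, where 13.5% of all genes were called. Acvr1, a BMP type I receptor, fell by 0.39 (limma adjusted p = 0.0389), and Smad5, a signal transducer of BMP receptors, rose by 0.26 (limma adjusted p = 0.0224). Id1, a target of the same signal, was -0.34 (limma adjusted p = 0.18) and Smad7, its inhibitor, -0.26 (limma adjusted p = 0.0782). Without HF replicate 2 Acvr1 was -0.21 (limma adjusted p = 0.13) and Smad5 0.28 (limma adjusted p = 0.0507), neither called. Acvr1 was kept in 9 of 15 fits that left out an array and Smad5 in 11. Id3, a relative of Id1, was singled out after its values were seen. It lay at 6.99 to 7.43 in the 7 arrays low for Hamp and at 7.53 to 8.91 in the 8 high ones. Id1 overlapped there, at 6.64 to 7.01 and 6.82 to 7.62. What Id3 shares with Hamp or RNA quality was not tested.

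In the list of iron uptake, storage and release, 2 of 17 rose and 1 fell in HF against ND, beside 13.5% of all genes called. Slc46a1, a folate and heme transporter, rose by 0.57 (SE 0.09, limma adjusted p = 0.00212) and was kept in all 15 fits that left out an array, with 0.46 and limma adjusted p = 0.133 under the covariate. Lrp1, a receptor that takes up heme bound to hemopexin, rose by 0.42 (limma adjusted p = 0.00796). Ncoa4, which delivers ferritin to breakdown, fell by 0.46 (limma adjusted p = 0.0393), and that call was lost without HF replicate 2, at -0.32 (limma adjusted p = 0.175). It was kept in 9 of the 15 fits that left out an array.

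Of 13 genes of the iron-responsive element system and iron-sulfur clusters, 2 rose and 2 fell in HF against ND (13.5% of all genes called). Aco1, the iron regulatory protein that stabilises Tfrc transcripts, rose by 0.30 (limma adjusted p = 0.0128) and among the fits that left out 1 array was lost only without HF replicate 3. In the 4 high-fat groups together it rose by 0.22 (limma adjusted p = 0.0261), also with the covariate at 0.25 (limma adjusted p = 0.0298), a call lost without ND replicate 1 and without ND replicate 3. Of 7 heme synthesis genes 3 rose in HF against ND (13.5% of all genes called), among them Alad, the second enzyme of the pathway, by 0.40 (limma adjusted p = 0.00894).

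In the zinc list 3 of 21 genes rose and 1 fell in HF against ND, where 13.5% of all genes were called. Slc39a7, a zinc transporter in the membrane of the endoplasmic reticulum, rose by 0.63 (limma adjusted p = 0.00498), and by 0.50 in the 4 high-fat groups together (limma adjusted p = 0.00698), a call kept in all 15 fits that left out an array and with the covariate (limma adjusted p = 0.018). Mtf1, the zinc-sensing factor that drives Mt1 and Mt2, fell by 0.29 in HFDC against HF (limma adjusted p = 0.0285), a call lost without HF replicate 2, at -0.30 (limma adjusted p = 0.118). The Mtf1 call was also lost without HF replicate 3 and without HFDC replicate 1, 2 or 3. Of 13 copper genes 2 rose in HF against ND (13.5% of all genes called) and 2 fell in HFDC against HF (5.02%). In HFDC against HF 8 entries of all these lists were called, beside 5.02% of all genes. Of the 8, 0 were kept without HF replicate 2 and 0 with the covariate.

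Of 26 acute phase genes 4 rose and 1 fell in HF against ND, where 13.5% of all genes were called. Stat3 was among those that rose, by 0.46 (limma adjusted p = 0.0345), a call lost without HF replicate 2, at 0.42 (limma adjusted p = 0.116). The Stat3 call was also lost without HF replicate 3 or ND replicate 1. In HFGC against HFDC 2 of 14 glucocorticoid targets rose (0.0385% of all genes called), Tsc22d3 by 1.03 and Per1 by 0.90 (limma adjusted p = 0.0378 for each), where Mt1 was 0.78 (limma adjusted p = 0.802). Tsc22d3 was kept in 5 of 15 fits that left out an array and Per1 in 8.

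Genes most like each member over the 15 arrays, among those at or above the median level, were found by Pearson r, as a description over arrays that share diets. None are given for Hamp, whose arrays fell into 2 sets. For Tfrc they were Evi5 (0.89), Mtdh (0.88) and Hdac10 (0.86). For Mt1 they were Acaca (0.89), Ppp1r3b (0.89) and Arrdc4 (0.85), and for Mt2 Ier5 (0.86), Shroom1 (0.85) and Ctps2 (0.85).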

How the data were processed

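Liver RNA of 15 mice was hybridised to 1 array each. Per probe set, the authors deposited a linear intensity computed by robust multi-array averaging (RMA, named in the submitters' processing notes without a version). Software and its version: not given in the sources used here. Log2 of each deposited intensity was taken, with no further normalization. Gene names came from the platform annotation, and each gene was represented by its brightest probe set, by one ending in _x_at only where no other existed.

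Tests used limma 3.58.1 in R 4.3.3, with 1 model of 5 group means over all 15 arrays, 12 contrasts and Benjamini-Hochberg adjustment over 18193 genes, and a second fit over 45037 probe sets. Genes were called at an adjusted p under 0.05. For 1 gene in 3 against 3 mice, the smallest exact two-sided permutation p is 0.1, and the number of arrays limits the precision. The members and lists were chosen with earlier results of these data known. Every member is named, and of each list up to 4 called and 2 uncalled genes per comparison could be named, of which the text uses fewer. The procedure was tested on simulated data. Alternatives were probe set choice, a level filter, cyclic loess, an offset of 32, compared groups alone, a replicate block, trended variance, a 3′ minus 5′ covariate and leaving out each array. The pathway calls and the dimmer Slc40a1 probe set were put through such alternatives after the data were seen. Promoter windows are from RefSeq (GRCm38.p6), and 3 members had no entry.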

Additional observations from a re-analysis of the deposited data

How the results depend on the processing

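In HF against ND the count of called members went from 0 to 1, always Slc40a1, with probe sets averaged per gene, the dimmer genes (below the median) left out, cyclic loess, an offset of 32, trended and robust variance, or the replicate block (limma adjusted p between 0.00732 and 0.0494). Of all genes tested in each, 2052 to 2469 were called in these fits, beside 2465 in the main fit. HFDC against HF and the coffee groups together against HF each went to 1 (Slc40a1) with probe sets averaged, and HFGC against HF to 1 (Hamp) with the compared groups alone. Of all genes, 558, 1351 and 9 were called in these fits, in that order. Leaving out 1 array gave 0 to 3 called members in HF against ND (Hamp, Bmp6 and Tfrc without ND replicate 3, and Slc40a1 without ND replicate 2 or HF replicate 3) and 0 to 3 in the 4 high-fat groups together against ND (Tfrc, Mt1 and Mt2 without ND replicate 3, and Mt1 without HFCC replicate 1 or HFGC replicate 3). Of all genes, 1813, 1942 and 1161 were called in these HF against ND fits, in that order. For the 4 high-fat groups together they were 629, 883 and 1115. Leaving out 1 array gave 0 to 1 in HFCC against ND (Tfrc without ND replicate 3, beside 353 of all genes). It gave 0 to 1 in HFDC against ND (Mt1 without HFGC replicate 1 or 3, beside 64 and 148 of all genes), and 0 in the other 8 comparisons. The cause was not tested.

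Same replicate numbers did not pair the mice: deviations from group means correlated at a median of 0.06 between arrays of the same number (-0.28 to 0.23 over 30 pairs) and -0.03 between others. Over single genes, 2558 of 2580 values stayed on the same side of the threshold and 22 became called. The sign turned in 73 values, none called in either fit, 25 of them with the 3′ minus 5′ covariate. That covariate turned Hamp to -2.20 in HFCC against HF and -0.85 for the coffee groups together, and Bmp6 to -0.20 in the latter. Signal over background could not be judged, since the deposited values carry no detection call.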
